A study of Mus musculus with 6 samples.

Results

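Glutathione transferases and UDP-glucuronosyltransferases, the enzymes that attach glutathione or a sugar acid to drugs, hormones and products of oxidised lipid, were followed in primary hepatocytes of alcohol-fed WT and S100a16KO+/- mice. The members were taken by gene name: every soluble glutathione transferase of the alpha, kappa, mu, omega, pi, theta and zeta classes (Gsta, Gstk, Gstm, Gsto, Gstp, Gstt, Gstz), every microsomal glutathione transferase (Mgst) and every UDP-glucuronosyltransferase of families 1 to 3 (Ugt1a, Ugt2a, Ugt2b, Ugt3a). Of the 25718 genes in the deposited table, 44 fitted these names, 25 of them glutathione transferases and 19 of them UDP-glucuronosyltransferases, and 1 row was left out because its name marks a pseudogene. The study asked how the loss of S100a16 altered gene expression while hepatocytes accumulated lipid.

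Both groups were male mice of 8 to 10 weeks on a C57BL/6 background, with 3 libraries each. Both received the NIAAA model of alcohol feeding: 5 days of a control liquid diet, 10 days of a liquid diet with 5% ethanol by volume, and 1 gavage of ethanol at 5 g/kg, 9 h before collection. Mice fed a diet free of ethanol were not analysed here, so each difference below is between genotypes under alcohol. The S100a16KO+/- animals came from a cross of a floxed S100a16 allele (exons 2 to 3) with EIIa-Cre mice, in which Cre acts early in the embryo, so the deletion was not limited to hepatocytes. They carried 1 intact allele because loss of both was lethal, and the sample labels call the same group a knockdown.

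A glutathione transferase joins the sulphur of the tripeptide glutathione to a reactive compound, and the product is trimmed and acetylated to a mercapturate that is excreted. The soluble enzymes are named by class, and the microsomal ones are unrelated proteins that sit in membranes and also reduce lipid peroxides. A UDP-glucuronosyltransferase faces the lumen of the endoplasmic reticulum and transfers glucuronic acid from UDP-glucuronate to bilirubin, steroids, bile acids, phenols and drugs, whereas the Ugt3a enzymes use other sugar donors. Hepatocytes carry both families at high levels, and the transcription factor NRF2 and the receptors CAR, PXR and AHR are known to induce many of their genes.

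The 9 Ugt1a genes are a single locus in which each has its own first exon and all share the exons that follow. Their first 45 coding bases, read from GENCODE M21 on GRCm38 with the start codon in capitals, differ among the members shown, whereas the last 740 coding bases of the 9, in coding sequences of 1587 to 1608 bases, are identical. The starts of 4 of them are shown to set the part in which most members differ against the part in which none does. Ugt1a6b begins with the same 45 bases as Ugt1a6a and shares 83.9% of its 31-base words with it, so reads from this start cannot separate that pair.
Ugt1a1: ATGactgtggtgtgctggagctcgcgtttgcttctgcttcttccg
Ugt1a5: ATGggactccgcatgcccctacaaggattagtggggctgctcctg
Ugt1a6a: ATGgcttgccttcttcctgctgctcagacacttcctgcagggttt
Ugt1a9: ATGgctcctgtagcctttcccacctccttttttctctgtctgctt

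The other clusters hold near-identical pairs. Gstp1 and Gstp2 differ at 12 of 633 coding bases, and 6 of these differences, in capitals here, lie in the first 90 bases.
Gstp1: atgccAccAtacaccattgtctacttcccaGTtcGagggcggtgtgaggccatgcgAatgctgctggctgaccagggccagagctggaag
Gstp2: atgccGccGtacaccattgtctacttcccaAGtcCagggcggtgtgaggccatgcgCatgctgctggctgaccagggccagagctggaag
Over aligned coding bases, Gsta1 and Gsta2 were 97.9% identical, Ugt2b5 and Ugt2b38 97.0%, and Ugt3a1 and Ugt3a2 93.3%. The share of 31-base words in a gene's transcripts that also occur in another gene of the annotation was 92.9% for Gsta1, 60.7% for Gsta2, 56.4% for Ugt2b5 and 38.5% for Gstp1, but 3.31% for Gstm4, 2.62% for Gstm7, 0.468% for Gstt1 and 0% for Mgst1. How the authors divided reads between such genes is not given in the sources used here, so values of single genes with a high share are uncertain, and the sum of each cluster is given beside them.

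Library totals of estimated counts ran from 67658095 to 71807834. About 4 counts were assumed to stand for 1 sequenced fragment, because values at multiples of 4 were in excess, and the main test used the undivided counts. S100a16 itself, the check of the labels, had 14.7, 15.0 and 16.2 CPM (counts scaled to a common library size with TMM factors) in WT replicates 1, 2 and 3 and 6.25, 6.07 and 5.08 CPM in S100a16KO+/- replicates 1, 2 and 3, a log2 fold change of -1.40 (SE 0.110, adjusted p = 4.14e-07). WT replicate 1 and S100a16KO+/- replicate 2 stood apart from the other 4 libraries, with 21.1% and 20.1% of counts on mitochondrial genes against 17.0% to 18.6%. Of 8 hepatocyte markers, 1 was higher, 1 lower and 6 did not pass the test. Summed endothelial markers were at 227 to 240 CPM in WT and 339 to 351 CPM in S100a16KO+/-, with 6 of 7 genes higher and 1 lower. Summed stellate cell markers were at 39.8 to 43.9 CPM in WT and 72.0 to 78.4 CPM in S100a16KO+/-, with 4 of 8 genes higher. Summed erythroid markers were at 141 to 176 CPM in WT and 16.5 to 18.6 CPM in S100a16KO+/-, with 3 of 3 tested genes lower, and the part of other cells in the results below was not tested. In bulk RNA, fewer cells of a type and less RNA per cell cannot be told apart.

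Levels of different genes were compared as FPKM, which are scaled per transcript length. Mgst1 was the most abundant member, with a mean of 1003 FPKM in WT and 853 FPKM in S100a16KO+/-. Gstm1 followed with 620 ± 44.8 FPKM in WT and 516 ± 59.4 FPKM in S100a16KO+/- (SD, n = 3), Ugt1a1 with 375 ± 47.1 and 370 ± 80.1 FPKM, and Ugt2b5 with 273 ± 13.3 and 384 ± 25.7 FPKM. Mgst1 and Gstm1 were separated beyond their spread in both genotypes. Ugt1a1 and Ugt2b5 did not differ beyond their spread in S100a16KO+/-. Behind them Ugt2b36, Ugt1a9, Gstp1, Gsta3, Ugt2b34, Ugt3a2 and Gstt1 stood at means of 87.7 to 237 FPKM. At the low end Gsto2, Mgst2, Ugt1a7c, Gstt4 and Ugt1a8 had mean levels below 1 FPKM in both genotypes, and Gstt4 and Ugt1a8 had at most 12 counts in every library and were not tested. The places of single Ugt1a genes in this order are uncertain, since reads of their shared exons had to be divided among them.

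**Figure D1:**
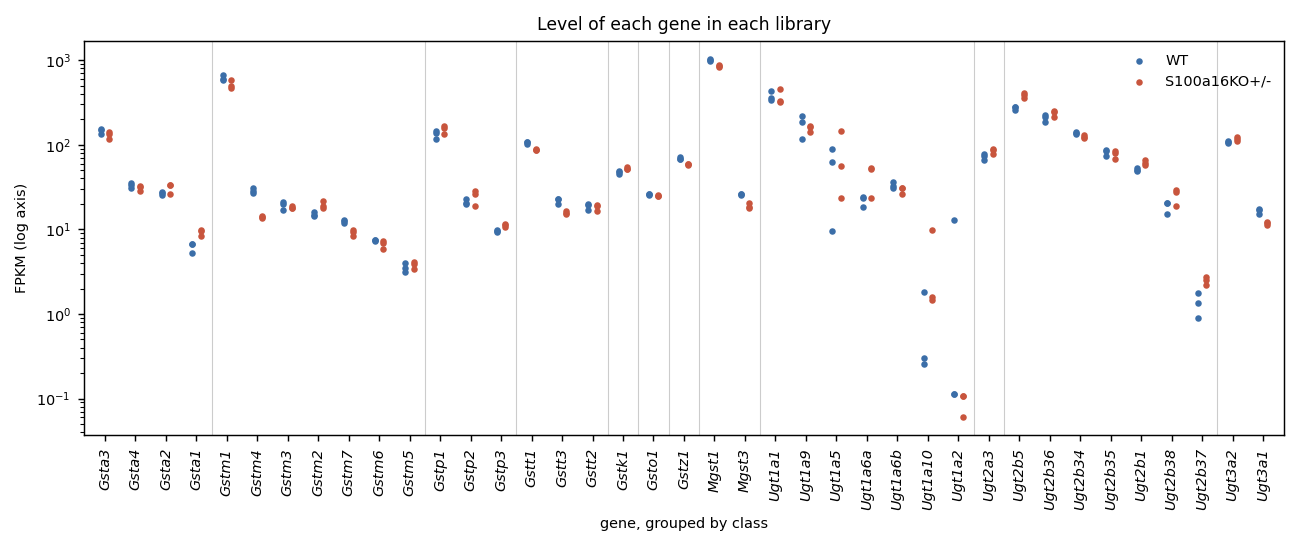
FPKM on a log axis of the 39 members with a mean of at least 1 FPKM in at least 1 genotype, grouped by class and ordered by level within each class. Each point is 1 library, blue for WT and red for S100a16KO+/-: Mgst1 is highest at 853 to 1003 FPKM on average, Gstm4, Mgst3 and Ugt2b5 separate by genotype, and Ugt1a5 and Ugt1a2 scatter within a genotype.

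Of the 42 members tested, 8 were higher and 10 lower in S100a16KO+/- at an adjusted p under 0.05, by edgeR's quasi-likelihood test with Benjamini-Hochberg adjustment over all tested genes. The called share was 42.9% of the members against 22.8% of the 15957 genes tested (11.6% higher and 11.2% lower). Abundant genes were called more often: among genes with a mean of at least 10 FPKM the share was 16 of 33 members, or 48.5%, against 46.2% of 2162 genes. Above this floor the called shares of members and of all genes lay close together, although levels above the floor were not matched and no test of the difference was run. CPM of the genotypes did not overlap in 21 of the 42 members (50.0%) against 37.9% of all tested genes, a comparison not matched for level.

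Most of the changes were small. The median absolute log2 fold change was 0.32 over the 18 called members and 0.48 over all called genes, and 16 of the 18 changed by less than 1.5-fold. The study's own criterion, an unadjusted p under 0.05 with at least a 2-fold change, was met by 1 member, Gstm4, and by 4.52% of all tested genes. The families differed in their counts by direction: 3 of 24 tested glutathione transferases were higher and 8 lower, with a median of -0.09 on the log2 scale, and 5 of 18 tested UDP-glucuronosyltransferases were higher and 2 lower, with a median of 0.14. Over all tested genes the median was 0.01, and the difference between the families was not tested.

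**Figure D2:**
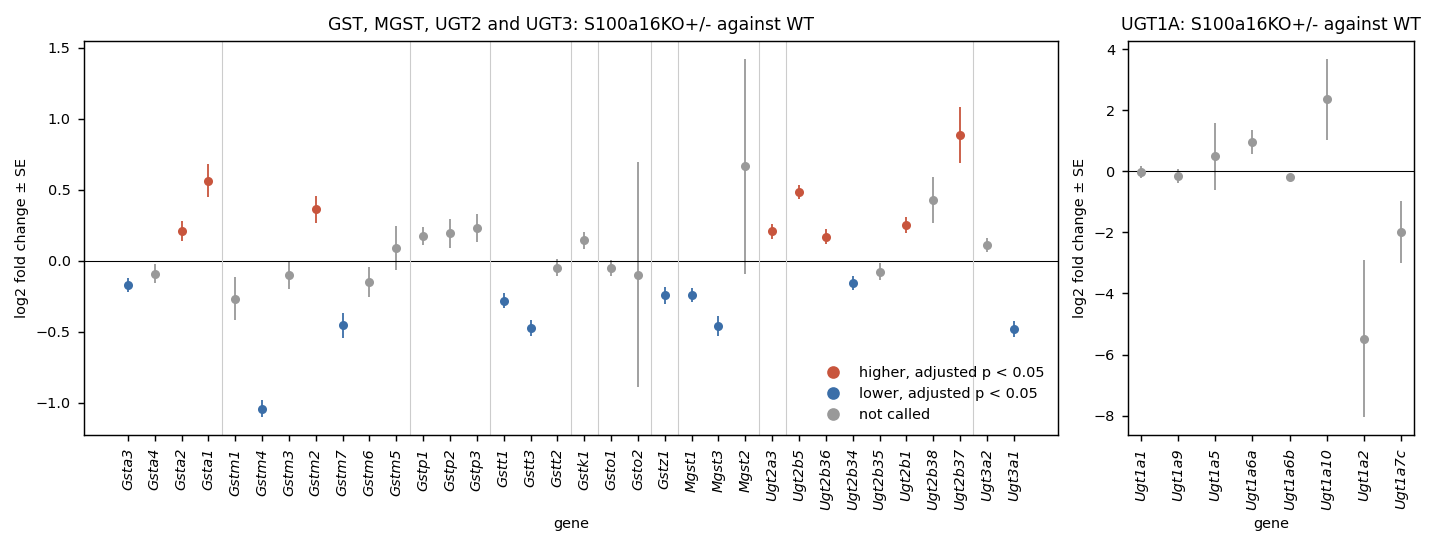
Log2 fold change of S100a16KO+/- over WT with its standard error (edgeR) for the 42 tested members, the Ugt1a genes on a wider axis at the right. Red marks genes higher and blue genes lower at an adjusted p under 0.05: Gstm4 at -1.04 is the lowest called member and Ugt2b37 at 0.89 the highest, and all 8 Ugt1a genes are grey.

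Among the called members, the largest change was in the mu class. Gstm4, a mu class enzyme (chr3:108040408-108044894, minus strand), had 54.7, 53.2 and 57.3 CPM in WT replicates 1, 2 and 3 and 27.1, 28.0 and 25.1 CPM in S100a16KO+/- replicates 1, 2 and 3. The genotypes did not overlap, and all 3 S100a16KO+/- libraries stood at close to the same level. Gstm4 fell to 48.6% of WT, a log2 fold change of -1.04 (SE 0.0623, adjusted p = 2.37e-08). Without S100a16KO+/- replicate 3 the log2 fold change was -0.997 (adjusted p = 1.67e-06), just short of the study's limit of 2-fold. Gstm4 shares few words with its neighbours, with Gstm7 the closest at 1.34% of words.

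Gstm7, 1 of the 7 mu genes of the cluster (chr3:107926334-107931817), had 22.4, 21.8 and 22.7 CPM in WT and 14.6, 17.5 and 16.7 CPM in S100a16KO+/-. It fell by 0.45 on the log2 scale (SE 0.0857, adjusted p = 0.00138), with every S100a16KO+/- library below every WT library. Gstm2 moved the other way, with 29.5, 26.2 and 29.4 CPM in WT and 32.9, 42.9 and 33.7 CPM in S100a16KO+/-, a log2 fold change of 0.36 (SE 0.0956, adjusted p = 0.0140). S100a16KO+/- replicate 2, 1 of the libraries that stood apart, was the highest for Gstm2, and without it the log2 fold change was 0.23 (adjusted p = 0.0371). Without WT replicate 2 the log2 fold change was 0.31 and the call was lost (adjusted p = 0.0726). Directions differed between neighbours in the same cluster.

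Gstm1, the most abundant mu enzyme of the liver (chr3:108012255-108017973), had 1165, 937 and 976 CPM in WT and 796, 1015 and 746 CPM in S100a16KO+/-. In CPM the genotypes overlapped, since S100a16KO+/- replicate 2 exceeded WT replicates 2 and 3, although in FPKM they did not. The log2 fold change of -0.27 (SE 0.150) did not pass the test (adjusted p = 0.297). WT replicate 1 and S100a16KO+/- replicate 2, the libraries with most mitochondrial counts, were the highest of their genotypes. Leaving out each library in turn gave log2 fold changes from -0.41 to -0.17. The call was gained without S100a16KO+/- replicate 2 (-0.41, adjusted p = 0.0221) and without both libraries (-0.32, adjusted p = 5.24e-05), while the value shrank without WT replicate 1 (-0.17, adjusted p = 0.473) and without S100a16KO+/- replicate 3 (-0.18, adjusted p = 0.482). The part of the state of these libraries in the value was not tested. Log2 fold changes of Gstm3, Gstm5 and Gstm6 were -0.10, 0.09 and -0.15 and none passed the test. Summed over its 7 genes, the Gstm cluster had 1182 ± 128 CPM in WT and 979 ± 155 CPM in S100a16KO+/- (log2 fold change -0.27, adjusted p = 0.230), and without S100a16KO+/- replicate 2 the sum was called as lower (-0.41, adjusted p = 0.00608), as it was with limma on log2(FPKM + 1) (adjusted p = 0.0390).

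The microsomal enzymes were lower where they were measurable. Mgst1, which protects membranes of the endoplasmic reticulum and mitochondria from lipid peroxides (chr6:138140316-138156755), had 2313, 2167 and 2310 CPM in WT and 1932, 1988 and 1825 CPM in S100a16KO+/-. It fell by 0.24 on the log2 scale (SE 0.0479, adjusted p = 0.00205) without overlap. Mgst3, a membrane enzyme with glutathione peroxidase activity, had 33.6, 30.5 and 31.5 CPM in WT and 24.6, 23.2 and 21.6 CPM in S100a16KO+/-. It stood at 72.7% of WT (log2 fold change -0.46, SE 0.0730, adjusted p = 0.000333), again with separate genotypes. Mgst2 stayed below 1 FPKM and its log2 fold change of 0.66 had an SE of 0.759 (adjusted p = 0.609).

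Of the theta class, 2 of the 3 tested genes fell. Gstt1, known for its activity on small halogenated compounds (chr10:75783813-75798584), had 183, 179 and 182 CPM in WT and 145, 156 and 147 CPM in S100a16KO+/-. Its log2 fold change was -0.28 (SE 0.0512, adjusted p = 0.00110), and the genotypes were separate. Gstt3 (chr10:75774115-75781414), next to Gstt1, had 90.2, 94.1 and 96.8 CPM in WT and 66.0, 68.3 and 68.5 CPM in S100a16KO+/-, a log2 fold change of -0.47 (SE 0.0542, adjusted p = 1.82e-05). Its genotypes were separated by more than the range within either of them. Gstt2 stood at -0.05 on the log2 scale and did not pass the test (adjusted p = 0.627), and the sum of the theta cluster fell from 363 ± 6.87 to 302 ± 3.62 CPM (log2 fold change -0.27, adjusted p = 0.000694).

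Gstz1, the maleylacetoacetate isomerase of tyrosine breakdown (chr12:87147165-87164723), had 426, 372 and 383 CPM in WT and 322, 353 and 322 CPM in S100a16KO+/-. It fell by 0.24 on the log2 scale (SE 0.0600, adjusted p = 0.00885), and the lowest WT library lay above the highest S100a16KO+/- library. The omega and kappa classes had no called gene by edgeR, DESeq2 or limma voom, with Gstk1 alone at an unadjusted p under 0.05. Gsto1, which reduces dehydroascorbate, had 60.8, 57.9 and 58.0 CPM in WT and 55.3, 59.8 and 55.4 CPM in S100a16KO+/-, with overlap (log2 fold change -0.05, adjusted p = 0.593). Gstk1, the enzyme of mitochondria and peroxisomes, had 79.0, 76.5 and 80.2 CPM in WT and 89.0, 90.3 and 81.2 CPM in S100a16KO+/-. Its values did not overlap, but the log2 fold change of 0.14 missed the threshold (SE 0.0580, adjusted p = 0.0939) except without S100a16KO+/- replicate 3 (0.19, adjusted p = 0.0455).

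The alpha class moved in both directions. Gsta3, its most abundant gene and in mice the enzyme that detoxifies the epoxide of aflatoxin B1 (chr1:21240589-21265661), had 686, 698 and 740 CPM in WT and 641, 597 and 651 CPM in S100a16KO+/-. The genotypes did not overlap in CPM but did in FPKM, and the log2 fold change was -0.17 (SE 0.0508, adjusted p = 0.0277). This call was lost without WT replicate 2 or 3 (adjusted p = 0.0716 and 0.156) and without S100a16KO+/- replicate 1 or 2 (adjusted p = 0.0645 and 0.0689). It was also lost with limma on log2(FPKM + 1) (adjusted p = 0.195) and with replicate number as a block in edgeR (adjusted p = 0.0653). Gsta4, which conjugates 4-hydroxynonenal from oxidised lipid, stood at -0.09 on the log2 scale and did not pass the test (adjusted p = 0.409).

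Gsta1 and Gsta2 (chr9:78230656-78242684 and chr9:78331018-78355788), a pair known to be induced by oxidants, were higher. Gsta1 had 5.89, 6.93 and 7.14 CPM in WT and 10.1, 9.37 and 10.1 CPM in S100a16KO+/-, a log2 fold change of 0.56 (SE 0.116, adjusted p = 0.00265). Gsta2 had 35.2, 35.2 and 34.9 CPM in WT and 42.9, 36.7 and 42.2 CPM in S100a16KO+/-, a log2 fold change of 0.21 (SE 0.0678, adjusted p = 0.0378). In CPM neither gene overlapped between the genotypes, although S100a16KO+/- replicate 2 came near the WT level of Gsta2. In FPKM Gsta2 did overlap, with S100a16KO+/- replicate 2 at 26.4 below WT replicates 2 and 3 at 27.6 and 26.9. The Gsta2 call was lost without WT replicate 1, 2 or 3 (adjusted p = 0.0848, 0.101 and 0.113) and without S100a16KO+/- replicate 1 or 3 (adjusted p = 0.160 and 0.142), and also with DESeq2 (adjusted p = 0.0533), without a filter on low counts (adjusted p = 0.0518) and with limma on log2(FPKM + 1) (adjusted p = 0.148). Their sum, which does not depend on how reads were divided within the pair, rose from 41.8 ± 0.588 to 50.4 ± 3.83 CPM (log2 fold change 0.27, SE 0.0639, adjusted p = 0.00645). The sum leaves out Gm3776, which shares 80.3% of the words of Gsta1.

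No pi gene passed edgeR's test, with 2 of the 3 at an unadjusted p under 0.05, and 1 was called by DESeq2 and 0 by limma voom. Gstp1, the abundant pi enzyme of the mouse liver (chr19:4035407-4037985), had 213, 235 and 248 CPM in WT and 280, 246 and 259 CPM in S100a16KO+/-. The genotypes overlapped by S100a16KO+/- replicate 2 alone, which lay below WT replicate 3, and the log2 fold change was 0.18 (SE 0.0647, adjusted p = 0.0681). Without S100a16KO+/- replicate 2 it was 0.22 (adjusted p = 0.0276) and without WT replicate 3 it was 0.23 (adjusted p = 0.0493), whereas without WT replicate 1 or S100a16KO+/- replicate 1 it was 0.12 in each case (adjusted p = 0.263 and 0.294). Gstp2 and Gstp3 had log2 fold changes of 0.19 and 0.23 (adjusted p = 0.198 and 0.118), and Gstp2 was called without S100a16KO+/- replicate 2 (0.32, adjusted p = 0.00506). Gstp3 did not overlap between genotypes in CPM or FPKM, and shares 0.534% of its words with other genes. It was called with limma on log2(FPKM + 1) (adjusted p = 0.0362). The cluster summed to 268 ± 17.5 CPM in WT and to 303 ± 20.2 CPM in S100a16KO+/- (log2 fold change 0.18, adjusted p = 0.0520), and without S100a16KO+/- replicate 2 the sum was called as higher (0.23, adjusted p = 0.0139), as it was by DESeq2 (adjusted p = 0.0320) and limma voom (adjusted p = 0.0413).

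Added over all 25 glutathione transferases, the level was 2381, 2370 and 2452 FPKM in WT and 2134, 2112 and 2077 FPKM in S100a16KO+/-. Every S100a16KO+/- library lay below every WT library, and Mgst1 and Gstm1 made up most of each sum. The 19 UDP-glucuronosyltransferases added up to 1510, 1693 and 1702 FPKM in WT and 1914, 1650 and 1848 FPKM in S100a16KO+/-, with overlap at S100a16KO+/- replicate 2. No test was run on these sums.

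The Ugt2b cluster on chromosome 5 held most of the UDP-glucuronosyltransferases that rose. Ugt2b5 (chr5:87124960-87140318, minus strand), the most abundant enzyme of a cluster that acts on steroids and bile acids, had 565, 565 and 575 CPM in WT and 834, 787 and 766 CPM in S100a16KO+/-. The genotypes lay far apart relative to the range within each, and the log2 fold change was 0.49 (SE 0.0474, adjusted p = 3.91e-06), or 140% of WT. Ugt2b37, a close relative of Ugt2b5 (94.7% identical coding bases), had 1.99, 3.62 and 2.82 CPM in WT and 5.21, 4.92 and 5.50 CPM in S100a16KO+/-. It rose by 0.89 on the log2 scale (SE 0.197, adjusted p = 0.00454), a gene of low level next to Ugt2b5 at 1.33 and 2.47 FPKM. Ugt2b37 shares 25.9% of its words with Ugt2b5, and the part of misplaced Ugt2b5 reads in its rise was not tested. Ugt2b38, which shares 44.1% of its words with Ugt2b5, had a log2 fold change of 0.43 with overlapping values and did not pass the test (SE 0.163, adjusted p = 0.125), but was called without S100a16KO+/- replicate 2 (0.57, adjusted p = 0.000773) and by DESeq2 (adjusted p = 0.00257).

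The changes in the rest of the cluster were smaller. Ugt2b1 had 149, 142 and 152 CPM in WT and 187, 173 and 167 CPM in S100a16KO+/-, a log2 fold change of 0.25 (SE 0.0566, adjusted p = 0.00486). It shares 0.826% of its words with other genes, so few of its reads could belong to a relative. Ugt2b36 had 457, 479 and 510 CPM in WT and 565, 520 and 542 CPM in S100a16KO+/-, a log2 fold change of 0.17 (SE 0.0536, adjusted p = 0.0350). Ugt2b34 went down, with 677, 652 and 680 CPM in WT and 615, 616 and 573 CPM in S100a16KO+/-, a log2 fold change of -0.15 (SE 0.0480, adjusted p = 0.0317). None of the 3 overlapped between genotypes in CPM, although Ugt2b36 did in FPKM, and the last 2 lay close to the threshold. Ugt2b36 lost its call without WT replicate 1 or 2 (adjusted p = 0.152 and 0.119) and without S100a16KO+/- replicate 1 or 3 (adjusted p = 0.171 and 0.0860). Ugt2b34 lost its call without WT replicate 1, 2 or 3 (adjusted p = 0.0950, 0.0604 and 0.131) and without S100a16KO+/- replicate 1 or 3 (adjusted p = 0.0609 and 0.126). With limma on log2(FPKM + 1) both genes lost their call (adjusted p = 0.161 for Ugt2b36 and 0.0871 for Ugt2b34). Both also lost it with replicate number as a block in edgeR (adjusted p = 0.0839 and 0.095). Ugt2b35 did not pass the test (log2 fold change -0.08, adjusted p = 0.426), and the cluster as a sum rose from 2216 ± 60.6 to 2464 ± 101 CPM (log2 fold change 0.15, SE 0.0465, adjusted p = 0.0289). The call of the sum was lost without WT replicate 1, 2 or 3 (adjusted p = 0.120, 0.131 and 0.0708) and without S100a16KO+/- replicate 1 (adjusted p = 0.180).

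Ugt2a3, the neighbouring gene of the 2A subfamily (chr5:87324972-87337195), had 165, 170 and 180 CPM in WT and 206, 194 and 195 CPM in S100a16KO+/-. It rose by a log2 fold change of 0.21 (SE 0.0538, adjusted p = 0.0121) without overlap. The call was lost without WT replicate 1 or 2 (adjusted p = 0.0554 and 0.0570) and without S100a16KO+/- replicate 1 (adjusted p = 0.0732). It was also lost with limma on log2(FPKM + 1) (adjusted p = 0.0810).

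The paired genes of the 3A subfamily on chromosome 15 differed from each other. Ugt3a1, which transfers N-acetylglucosamine (chr15:9276888-9315032), had 47.9, 48.5 and 50.8 CPM in WT and 34.9, 35.4 and 35.2 CPM in S100a16KO+/-, a fall to 71.8% of WT (log2 fold change -0.48, SE 0.0553, adjusted p = 1.92e-05). Its spread was narrow in both genotypes and they did not overlap. Ugt3a2 (chr15:9335550-9370955) had 381, 364 and 377 CPM in WT and 419, 401 and 390 CPM in S100a16KO+/-. Its CPM did not overlap either, although its FPKM did. The values lay on the opposite side and the log2 fold change of 0.11 did not pass the test (SE 0.0486, adjusted p = 0.132). Because Ugt3a2 was the more abundant, the pair summed to 423 ± 9.30 CPM in WT and to 439 ± 14.4 CPM in S100a16KO+/- (log2 fold change 0.05, adjusted p = 0.505).

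None of the 8 tested Ugt1a genes passed edgeR's test (1, Ugt1a6b, at an unadjusted p under 0.05), and limma voom also called 0, whereas DESeq2 called 2, Ugt1a6a and Ugt1a7c. Several of them varied more between replicates than any other abundant member. Ugt1a1, the enzyme that conjugates bilirubin (chr1:88211959-88218997), had 1121, 869 and 825 CPM in WT and 774, 865 and 1103 CPM in S100a16KO+/-, with full overlap (log2 fold change -0.04, SE 0.196, adjusted p = 0.925). Its direction turned when WT replicate 1 was left out (0.11 on the log2 scale) and when S100a16KO+/- replicate 1 was (0.07). Ugt1a5 ran from 9.58 to 89.1 FPKM among WT libraries and from 23.3 to 145 FPKM among S100a16KO+/- libraries, and took 1.52% to 18.8% of all counts of the locus. The highest and lowest library for Ugt1a5 were 14.2-fold apart in estimated counts.

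Ugt1a2 had 2128 counts in WT replicate 3 and between 11 and 21 counts in the other 5 libraries, so its log2 fold change of -5.49 rests on that library alone (SE 2.57, adjusted p = 0.238). Ugt1a10 had 334, 53 and 45 counts in WT and 1701, 255 and 276 counts in S100a16KO+/- (log2 fold change 2.36, SE 1.33, adjusted p = 0.317). Replicate 1 was the highest in each genotype. With replicate number as a block in edgeR, Ugt1a10 was called (2.41, adjusted p = 3.35e-07), although replicate numbers were not taken as pairs. Ugt1a6a, an enzyme of small phenols, had 92.8, 114 and 112 CPM in WT and 249, 265 and 109 CPM in S100a16KO+/-. S100a16KO+/- replicate 3 lay at the WT level, and the log2 fold change of 0.97 did not pass the test (SE 0.395, adjusted p = 0.183). Without that library it was 1.28 and was called (adjusted p = 1.08e-06). Ugt1a9 and Ugt1a6b had log2 fold changes of -0.16 and -0.18 (adjusted p = 0.706 and 0.137). Ugt1a9 was called without WT replicate 1 (-0.35, adjusted p = 0.00346) and Ugt1a6b without S100a16KO+/- replicate 2 (-0.27, adjusted p = 0.0179).

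The locus as a whole was steady. Summed over its 9 genes it had 1635, 1748 and 1727 CPM in WT and 1857, 1731 and 1740 CPM in S100a16KO+/-, which overlapped. Means were 1703 ± 60.2 CPM for WT and 1776 ± 70.4 CPM for S100a16KO+/- (log2 fold change 0.06, SE 0.0477, adjusted p = 0.426). For the sum, the SD between replicates was 3.54% of the mean in WT and 3.97% in S100a16KO+/-, against medians of 17.1% and 18.6% for the 5 Ugt1a genes with at least 10 FPKM. The 28 other members at that level had medians of 3.88% and 5.46%. In the sequences of the locus, 53.0% to 84.2% of the words of each gene occur in another gene. The levels of single Ugt1a genes are therefore given as deposited, and their places by level, also those given above, are uncertain.

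**Figure D3:**
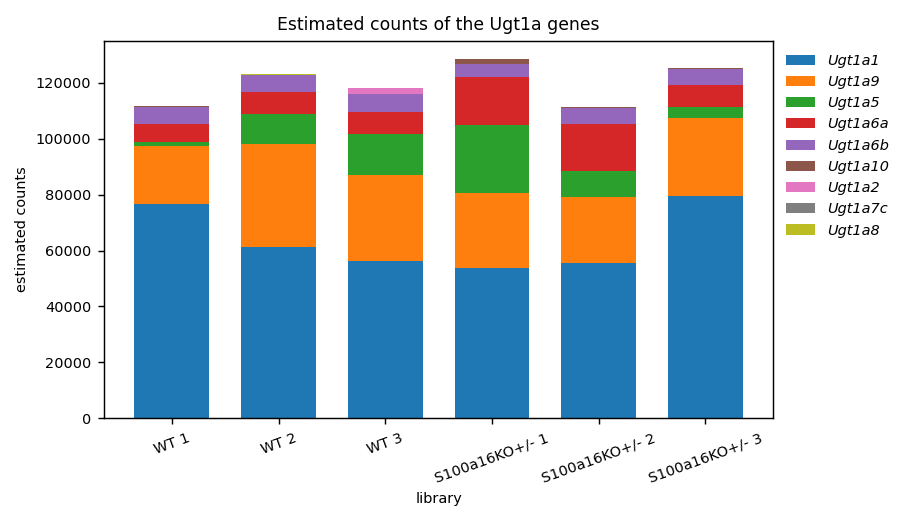
Estimated counts of the 9 Ugt1a genes in each library, stacked. The height of the stack varies little, while Ugt1a5 (green) takes between 1.52% and 18.8% of the locus and Ugt1a1 (blue) between 41.7% and 68.6%.

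Of the 7 sums over related genes, 3 passed the test, Gsta1 with Gsta2 and the Ugt2b cluster higher and the Gstt cluster lower. The called share was 22.8% of the 15932 features in the table with sums. Among single genes with a mean of at least 10 FPKM it was 46.2%, and levels were not matched. A sum does not depend on how reads were shared inside its cluster, so these 3 directions do not rest on that step. Reads shared with genes outside a sum, such as Gm3776 for Gsta1, can still be misplaced. The call of Gsta1 with Gsta2 was lost with limma on log2(FPKM + 1) (adjusted p = 0.0579) and with limma on log2(FPKM + 0.1) (adjusted p = 0.0594). The call of the Ugt2b cluster was lost when single libraries were left out, as given above, with log2 fold changes of 0.12 to 0.17 in those fits. It was also lost with replicate number as a block in edgeR (adjusted p = 0.109).

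Promoters of the members, from RefSeq on GRCm38.p6 (250 bases before to 50 after each start), were searched on both strands for 4 short motifs, and 40 of the 44 members had at least 1 entry. The core of the antioxidant response element bound by NRF2, TGACNNNGC, was in 4 members (Gsta3, Gstm5, Gstm7 and Mgst1). It was in 4 of the 49 promoters of members and in 12.4% of all 32851 promoters. The AHR core GCGTG was in 9 members, or 10 of the 49 promoters, against 32.4% of all promoters. The C/EBP motif TTGCNNAA was in 9 members, or 9 of the 49, against 10.8% of all promoters. The HNF1 motif TTAATNATT was in 8 members, or 8 of the 49 promoters, against 1.47% of all promoters. All 8 were UDP-glucuronosyltransferases: Ugt1a1, Ugt1a5, Ugt1a9, Ugt1a10, Ugt2b5, Ugt2b35, Ugt2b37 and Ugt2b38. Of these Ugt2b5 and Ugt2b37 rose and the other 6 did not pass the test. Promoters of related genes share their ancestry and are not independent. A match is a stretch of letters and not a tested binding site.

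The promoters of Ugt2b5 and Ugt2b37, which rose, and of Gstm4, which fell furthest, are shown on the strand of the gene. Capitals mark motif matches, which are HNF1 and C/EBP for Ugt2b5 and HNF1 for Ugt2b37. The start of Gstm4 held none of the 4 motifs.
Ugt2b5, chr5:87140291-87140590, minus strand: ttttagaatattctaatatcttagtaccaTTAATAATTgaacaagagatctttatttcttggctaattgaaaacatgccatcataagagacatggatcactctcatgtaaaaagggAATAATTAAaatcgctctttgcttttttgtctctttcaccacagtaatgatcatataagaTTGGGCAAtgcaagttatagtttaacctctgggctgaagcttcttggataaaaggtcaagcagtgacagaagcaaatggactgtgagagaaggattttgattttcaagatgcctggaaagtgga
Ugt2b37, chr5:87254739-87255038, minus strand: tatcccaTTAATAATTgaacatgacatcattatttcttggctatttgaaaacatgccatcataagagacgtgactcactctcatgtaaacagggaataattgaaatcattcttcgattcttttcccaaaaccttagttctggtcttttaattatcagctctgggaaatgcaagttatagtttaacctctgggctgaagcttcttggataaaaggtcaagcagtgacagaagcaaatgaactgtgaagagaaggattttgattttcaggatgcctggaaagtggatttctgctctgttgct
Gstm4, chr3:108044807-108045106, minus strand: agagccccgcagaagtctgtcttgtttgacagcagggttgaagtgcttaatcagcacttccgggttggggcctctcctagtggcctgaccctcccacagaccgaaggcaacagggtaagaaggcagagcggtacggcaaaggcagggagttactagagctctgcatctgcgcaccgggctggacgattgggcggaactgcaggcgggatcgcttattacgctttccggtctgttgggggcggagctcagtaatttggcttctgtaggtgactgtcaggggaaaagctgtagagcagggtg

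The genes that supply the cofactors of both families were counted from fixed lists, with the median log2 fold change of each list beside the 0.01 of all tested genes. For glutathione synthesis, recycling and breakdown, 1 of 16 tested genes was higher and 9 lower (median -0.23). Gclc and Gclm, the subunits of the rate-limiting ligase, fell by 0.21 and 0.26 on the log2 scale (adjusted p = 0.0108 and 0.00249). Gclc had 124, 118 and 121 CPM in WT and 104, 108 and 102 CPM in S100a16KO+/-, without overlap. Ggt6, of the family that splits off the glutamate of glutathione, had the smallest p of the list and fell by 0.64 (adjusted p = 1.81e-05).

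For the steps from glutathione conjugate to mercapturate, 2 of 9 tested genes were higher and 3 lower (median -0.13). Nat8f2, of the family that acetylates cysteine conjugates, fell from 632 ± 7.68 to 346 ± 17.1 CPM (log2 fold change -0.87, adjusted p = 1.47e-08), and Nat8f1 of the same family rose from 47.8 ± 4.76 to 62.2 ± 3.85 CPM (0.38, adjusted p = 0.00182). Kyat3, a cysteine conjugate lyase that also transaminates kynurenine, rose by a log2 fold change of 0.63 (adjusted p = 7.16e-07). For conjugate export, 1 of 10 tested genes was higher and none lower (median 0.11). Abcc4, an exporter toward the blood, rose by 0.42 (adjusted p = 0.00265), while the exporter into bile, Abcc2, stood at -0.06 (adjusted p = 0.433).

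For the supply of UDP-glucuronate and the hydrolysis of glucuronides, 5 of 8 tested genes were higher and 1 lower (median 0.30). Ugp2, which makes UDP-glucose, had 355, 364 and 395 CPM in WT and 508, 470 and 497 CPM in S100a16KO+/-, a log2 fold change of 0.41 (adjusted p = 7.38e-05) without overlap. Ugdh, which oxidises it to UDP-glucuronate, rose by 0.19 (adjusted p = 0.0300), and Gusb, the lysosomal enzyme that hydrolyses glucuronides, by 0.43 (adjusted p = 0.000889). Slc35d1, a transporter of UDP-glucuronate into the endoplasmic reticulum, fell from 151 ± 6.15 to 102 ± 3.52 CPM (log2 fold change -0.56, adjusted p = 3.66e-06). Slc35b1, a nucleotide carrier of the same membrane, rose by 0.80 (adjusted p = 5.43e-06).

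Among the receptors and transcription factors of drug metabolism, 1 of 15 tested genes was higher and 9 lower (median -0.24). Nfe2l2, which encodes NRF2, fell from 72.1 ± 2.11 to 49.8 ± 2.76 CPM (log2 fold change -0.53, adjusted p = 1.39e-05), and Ahr, with 34.5, 37.0 and 35.1 CPM in WT and 22.0, 19.9 and 21.3 CPM in S100a16KO+/-, fell by 0.75 (adjusted p = 2.08e-06). Nr1i2, which encodes PXR, fell by 0.34 (adjusted p = 0.000599), whereas Nr1i3, which encodes CAR, stood at -0.16 and did not pass the test (adjusted p = 0.0621). Cebpa and Nr1h4 (the bile acid receptor FXR) fell by 0.70 and 0.62 (adjusted p = 1.13e-07 and 6.65e-07). Cebpb, the 1 gene of the list that was higher, rose from 104.1 ± 8.42 to 146.5 ± 19.2 CPM (log2 fold change 0.49, adjusted p = 0.00166). RNA levels do not measure the activity of these factors.

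Other genes known as targets of these factors moved in mixed ways. Of other NRF2 targets, 4 of 14 tested genes were higher and 6 lower (median -0.03), with Srxn1 higher by 0.53 (adjusted p = 2.03e-05) and Aox1 lower (-0.47, adjusted p = 1.86e-05). Of other CAR and PXR targets, 2 of 15 were higher and 9 lower (median -0.39). Cyp2b10, a cytochrome P450 used as the marker of CAR activity, fell from 328 ± 15.0 to 105 ± 5.95 CPM (log2 fold change -1.64, adjusted p = 8.22e-11), a larger change than that of any called member. Of other AHR targets, 2 of 4 tested genes were lower and none higher (median -0.29), with Cyp1a2 at a log2 fold change of 0.01 (adjusted p = 0.914).

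Lists for position in the liver lobule moved as well, and of the lists for sex the female-biased one did. Of pericentral genes, 2 of 11 were higher and 6 lower (median -0.30), and Tbx3 fell by 2.43 on the log2 scale (adjusted p = 2.21e-10). Of periportal genes, 7 of 11 were higher and none lower (median 0.27), and Pck1 rose by 1.36 (adjusted p = 2.39e-11). Of female-biased liver genes, 5 of 8 tested were higher and 1 lower (median 0.44), and of male-biased genes 1 of 10 was higher and 2 lower (median -0.02). Whether these shifts have a part in the changes of the conjugating enzymes was not tested.

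**Figure D4:**
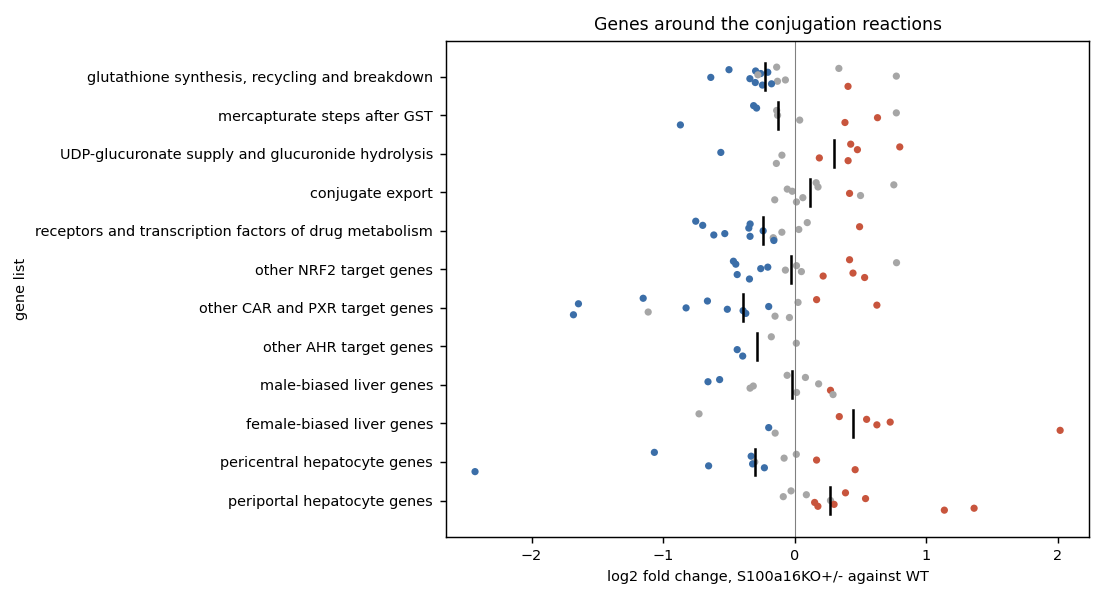
Log2 fold change of S100a16KO+/- over WT for the tested genes of 12 fixed lists around the conjugation reactions, a point per gene and a black bar at each median. Red marks genes higher and blue genes lower at an adjusted p under 0.05: medians run from -0.39 for CAR and PXR targets to 0.44 for female-biased genes.

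Across these 12 lists, 121 distinct genes were tested, of which 29 were higher and 44 lower. Each list is described by its counts and median only, beside the 22.8% of all tested genes that were called. Among genes with a mean of at least 10 FPKM the called share was 46.2%, and the levels of the listed genes were not matched to either background.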

How the data were processed

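RNA of primary hepatocytes was sequenced as poly(A)-selected, strand-specific paired libraries per the labels. The authors deposited an estimated count per gene and library, not scaled for depth, and FPKM, scaled for transcript length and depth. The submitters' processing notes name cutadapt 1.9, HISAT2 2.0.4, UMI-tools, StringTie 1.3.4d, DESeq2, edgeR and mm10, without the role or order of each. Whether duplicates were collapsed by molecular identifier is not given in the sources used here. Columns of the authors' own comparison (fold changes and p-values) were not used.

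Estimated counts were tested in R 4.3.3 with edgeR 4.0.16 (TMM, filterByExpr, robust quasi-likelihood fit, two-sided test of genotype, no covariate, Benjamini-Hochberg over 15957 genes). edgeR stood in for the DESeq2 that the study's text names, and DESeq2 1.42.0 and limma 3.58.1 were alternatives. Detection was limited to 3 fragments (12 counts at the assumed 4 counts per fragment), which covers counting error only. The n of 3 is libraries, taken as separate mice since the study gives 3 per group. Each p-value sets the difference between genotypes against the spread between these libraries. No pair of replicates had counts within sampling noise (chi-square per degree of freedom 3.28 to 12.1). Replicate numbers were not treated as pairs. Called members with at least 1 FPKM and the most abundant member of each class were given in every library, and of each list up to 3 genes with the smallest adjusted p and those a sentence needed. Members, lists and motifs were chosen with earlier results of these data known. Table positions equal those of GENCODE M21 for 41 of 44 members. The fits were tested on simulated data with known changes.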

Additional observations from a re-analysis of the deposited data

How the results depend on the processing

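Single genes of near-identical clusters depend on how reads were divided. No alternative fit divided the reads again, so a call kept for a single gene does not bear on that step. Of the 18 called members, 9 (Gstm4, Gstm7, Gstt1, Gstt3, Gstz1, Mgst1, Mgst3, Ugt2b5 and Ugt3a1) kept their call in all 18 alternative fits at an adjusted p under 0.05, 9 lost it in at least 1, and 0 changed direction. The 18 of 42 tested became 9 with limma on log2(FPKM + 1) without a filter and 2 with at least a 1.5-fold change. With sums in place of their members, 8 of 17 tested features were called, a smaller set than the 42 members. Leaving each library out in turn gave 12 to 22. Leaving out both libraries that stood apart, chosen after seeing the data, gave 24. Under the study's criterion the count of 1 became 3 with DESeq2, 0 with limma on log2(FPKM + 1) with a mean FPKM of at least 1 or without a filter, 2 with at least a 1.5-fold change, and 1 to 2 without each library (2 without WT replicate 2, with Ugt2b37, or without S100a16KO+/- replicate 1, with Ugt1a7c). Without S100a16KO+/- replicate 3 the 1 member was Ugt1a6a (log2 fold change 1.28) in place of Gstm4 (-0.997). The 3 called sums became 0 with limma without a filter, 5 without both libraries that stood apart, and 2 to 5 without each library (5 without S100a16KO+/- replicate 2). The 73 called genes of the lists became 41 with limma without a filter. Ugt1a1 had log2 fold changes from -0.20 to 0.11 without each library and 0.14 without both libraries that stood apart. The causes were not tested.

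Same-numbered replicates did not deviate together (correlations -0.05, -0.02 and 0.05), so the numbers were not taken as pairs. With the replicate block, 15 members were called and 2 met the study's criterion.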
